A study of Drosophila melanogaster with 2 samples.

Results

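The mitochondrial ribosomal protein genes of Drosophila melanogaster, the mRp genes, encode the protein subunits of the ribosome inside mitochondria. They were taken as the protein-coding genes of the Ensembl BDGP6 annotation whose symbol begins with mRpL (large subunit, 47 genes) or mRpS (small subunit, 26 genes), which gave 73 of 13945 protein-coding genes. The subunit is taken from the symbol alone, and in human the proteins named S18A and S30 sit in the large subunit. CG33017 binding at them was read from chromatin immunoprecipitation sequencing (ChIP-seq), in which DNA fragments bound by a protein are precipitated and sequenced. Whole adult males of a transgenic line that stably expresses CG33017 with GFP at its C-terminus were used, with chromatin sonicated to a labelled size of 200 to 800 bp. The labels give anti-GFP as the precipitating antibody in 1 field and name CG33017 in another, and the age of the flies as unknown. There was 1 group with 2 biological replicates and no second condition, and all values come from peak lists on the dm6 assembly. The replicates were compared with 1 shared control alignment, and an untagged line was not analysed here. Chromatin of whole flies mixes all tissues, so binding in few cells and weak binding in many cannot be told apart. Read depth is unknown from peak lists.

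Mitochondria keep a small genome that codes mostly for core subunits of the respiratory chain and the ATP synthase, and their own ribosome translates those messages. The ribosome's RNAs come from mitochondrial DNA, but its proteins are encoded in the nucleus, made in the cytosol and imported. Many have a counterpart in the bacterial ribosome, and others were added during the evolution of the organelle. In adult flies the muscles, the heart and the germ line are rich in mitochondria.

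CG33017 summits lay at close to 1 in 2 mRp promoters, and nearly all of these promoters were shared with a neighbouring gene. The authors filtered peaks by irreproducible discovery rate (IDR) to make the IDR list. It placed a summit within 500 bp of a transcription start site (TSS) of 33 of the 73 mRp genes (45.2%). This compares with 23.8% of all protein-coding genes, which include the mRp genes here and throughout. Genes with such a summit are called bound below. Each bound mRp gene had the same rank by signal in the IDR list as in the list from the pooled replicates. Being bound thus went with a high pooled signal and did not require a high rank in both replicates. Counted by replicate, the 4867 highest-signal peaks of each replicate list, as many as the IDR list holds, reached 24 mRp genes in replicate 1 (32.9%, against 22.5% of protein-coding genes) and 33 in replicate 2 (45.2%, against 24.1%). The replicate mean was 39.1% ± 8.70 (SD, n = 2) of mRp genes, and 22 genes were reached in both. The mRp share lay above the protein-coding share in both replicates, while the replicates differed from each other by more than replicate 1 differed from its protein-coding share. When each peak was given only to the gene with the nearest TSS, 14 mRp genes remained (19.2%), against 17.9% of protein-coding genes. In the other 19 bound mRp genes the summit lay closer to the start of another gene.

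The sequences under the summits were rich in A and T. Windows of 121 bases centred on the summit are shown for 6 of the 7 mRp genes of highest signal, followed by mRpS26, the next in signal. All are dm6, + strand, 5' to 3', and capitals mark the longest unbroken run of A and T, or the first such run where several are equally long. They lie at chr3R:15229472-15229592, chr2L:13835401-13835521, chr3L:2373549-2373669, chr2L:4945420-4945540, chr3L:13018077-13018197, chr2L:4850487-4850607 and chr3L:18106348-18106468 in the order printed.
mRpS10: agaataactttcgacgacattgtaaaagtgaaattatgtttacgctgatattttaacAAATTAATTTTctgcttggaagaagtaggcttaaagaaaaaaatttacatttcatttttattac
mRpS23: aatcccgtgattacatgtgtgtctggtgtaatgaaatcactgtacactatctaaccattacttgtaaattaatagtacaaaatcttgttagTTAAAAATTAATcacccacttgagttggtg
mRpL23: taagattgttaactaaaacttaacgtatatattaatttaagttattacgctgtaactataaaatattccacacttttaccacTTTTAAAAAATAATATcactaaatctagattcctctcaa
mRpL24: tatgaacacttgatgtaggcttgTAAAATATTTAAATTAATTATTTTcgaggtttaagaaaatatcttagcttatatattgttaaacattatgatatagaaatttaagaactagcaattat
mRpL20: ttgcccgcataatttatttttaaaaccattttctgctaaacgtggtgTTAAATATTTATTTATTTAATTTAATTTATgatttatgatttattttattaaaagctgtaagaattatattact
mRpS2: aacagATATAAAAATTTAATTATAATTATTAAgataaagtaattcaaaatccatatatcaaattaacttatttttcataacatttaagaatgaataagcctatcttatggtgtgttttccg
mRpS26: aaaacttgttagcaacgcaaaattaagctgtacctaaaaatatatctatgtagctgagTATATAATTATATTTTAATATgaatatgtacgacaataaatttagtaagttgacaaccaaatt
The GC content of these windows lay between 19% (mRpL20) and 32.2% (mRpS23), and the runs were 11 (mRpS10) to 30 bases (mRpL20) long. mRpL46, mRpL51, mRpL15 and mRpL48 had no IDR summit. They are shown by the whole stretch between their start and the start of the divergent neighbour. The stretches lie at chr3L:1777411-1777439, chr2L:8517380-8517411, chr3L:20436209-20436250 and chr2L:1710421-1710462.
mRpL46: ccgATAAcgataactgtgccgcaaatcag
mRpL51: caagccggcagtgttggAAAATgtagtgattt
mRpL15: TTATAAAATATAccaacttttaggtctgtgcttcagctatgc
mRpL48: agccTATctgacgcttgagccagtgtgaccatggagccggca
These stretches hold 29, 32, 42 and 42 bases including both starts, and their GC contents are 48.3%, 43.8%, 33.3% and 59.5%. They are shorter than the windows of 121 bases and not centred on a summit. Their GC contents and runs are therefore not like for like with those above. Of the sequences, mRpS10, mRpL23 and mRpS26 were taken by the rule for sequences and the others were chosen after their values were seen. Stretches of other unbound mRp genes are not printed, among them mRpS18A at 29.6% GC, mRpL47 at 40% and mRpS14 at 63.6%.

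A group of 7 mRp genes stood apart in signal, the authors' enrichment value for a peak. At mRpL41 and mRpL23 the mRp start was the nearest to the summit. At mRpS10, mRpS23, mRpL24, mRpL20 and mRpS2 the start of a neighbouring gene was nearer, so these peaks cannot be given to the mRp gene alone. mRpL41, whose product has no bacterial counterpart, carried a signal of 2325 (2R, 15217581 to 15217931, summit at -141 bp, negative offsets being upstream), with rank 8 in the pooled list, 9 in replicate 1 and 6 in replicate 2. mRpS10, counterpart of a bacterial protein in the head of the small subunit, had 2098 (3R, 15229357 to 15229711, -133 bp) and ranks 11, 10 and 15 in the same order. mRpS23 had 1974 (2L, 13835296 to 13835641, -389 bp) and ranks 17, 11 and 23. These 3 genes stood among the 25 highest IDR peaks, which is 4.11% of mRp genes against 0.186% of protein-coding genes.

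The other genes of the group all have bacterial counterparts. mRpL23, whose bacterial counterpart sits at the exit of the peptide tunnel, had 1197 (3L, 2373432 to 2373780, 69 bp downstream) and ranks 71, 78 and 60. mRpL24, whose bacterial counterpart binds early in large subunit assembly, had 1178 (2L, 4945301 to 4945640, -119 bp) and ranks 73, 87 and 59. mRpL20, another early assembly protein in bacteria, had 1003 (3L, 13017993 to 13018298, -270 bp) and ranks 102, 109 and 98. mRpS2, counterpart of a protein on the back of the bacterial small subunit, had 933 (2L, 4850359 to 4850718, -128 bp) and ranks 123, 157 and 94.

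No mRp peak had a signal between 933 and that of mRpS26 at 288. The split at 900 was placed in this empty range after the values were seen. Of the 34 IDR peaks at mRp genes, 7 (20.6%) exceeded 900, against 99 of the 2967 IDR peaks with a summit within 500 bp of any TSS (3.34%). The bulk of mRp peaks was nevertheless not stronger than usual. The median signal over the 33 bound mRp genes was 156 (106 to 2325), against 182 over bound protein-coding genes. Among the 250 highest IDR peaks the mRp genes counted 7 (9.59% of them, against 1.69% of protein-coding genes), and widening to 500 peaks added none, against 3.26% of protein-coding genes.

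**Figure D1:**
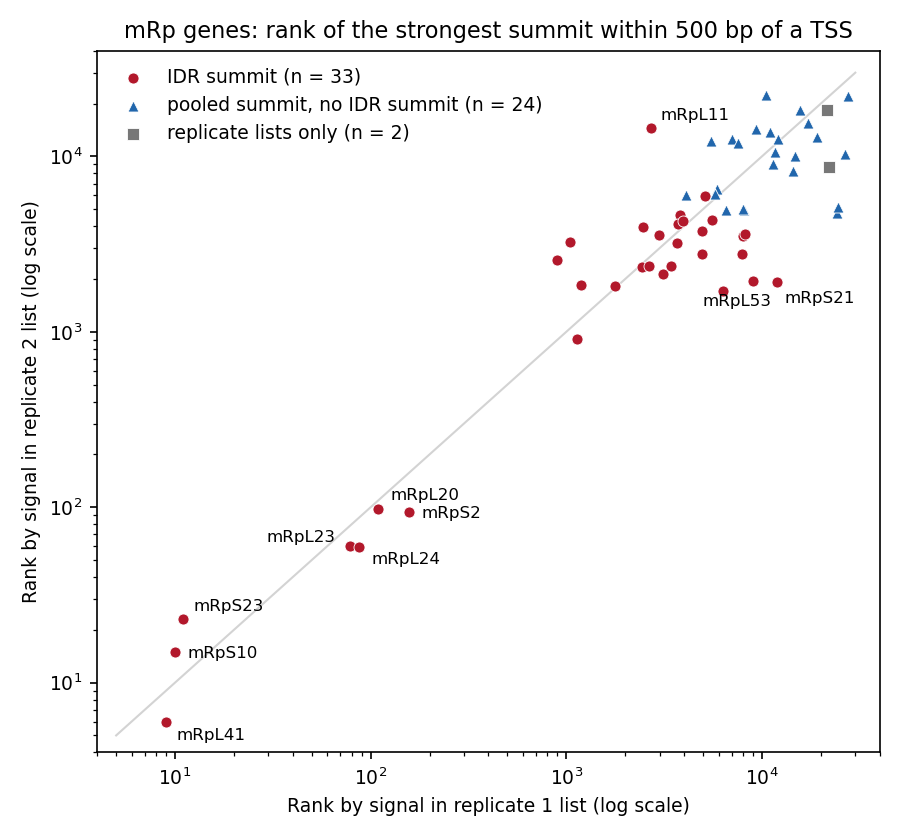
Rank of the strongest summit within 500 bp of an mRp TSS in the replicate 1 list (x axis, log scale) and the replicate 2 list (y axis, log scale), 1 being the highest signal, for the 59 mRp genes with a summit in both. Circles are genes with an IDR summit, triangles genes with a pooled summit and no IDR summit, squares genes found in the replicate lists without a pooled summit, and the line marks equal ranks. The 7 genes of highest signal rank 6 to 157, and the other circles begin near 900.

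The strong mRp sites ranked high in both replicates, and the order of the others varied. Over the 59 mRp genes with a summit in both full lists, Spearman's rho between the ranks was 0.747, against 0.80 over 7348 protein-coding genes. Over the 33 bound mRp genes it was 0.599, against 0.736 over 3300 bound protein-coding genes. These are descriptions across genes, several of which share a peak. All 7 strong genes had ranks within 9 to 157 in replicate 1 and 6 to 98 in replicate 2. They were picked by a signal drawn from both replicates together, so these high ranks follow in part from that choice. Among the bound mRp genes the largest ratio of ranks was at mRpS21, with rank 11889 in replicate 1 and 1917 in replicate 2, a 6.20-fold ratio. mRpL11 went the other way, with rank 2694 in replicate 1 and 14424 in replicate 2. Of the 33 bound genes, 20 ranked higher in replicate 2 and 13 in replicate 1. The highest 4867 peaks held 9 of them in replicate 2 only and 1 in replicate 1 only, and 1 gene was in neither.

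The other bound genes of the large subunit had signals of 106 to 239. Those close to the catalytic and tRNA sites by their bacterial counterparts were mRpL2, mRpL16 and mRpL27. mRpL2 had 2 IDR peaks, of signal 236 (-333 bp, pooled rank 1363, replicate ranks 898 and 2551) and 107 (-133 bp). mRpL16 had 110 (-133 bp, pooled rank 4522, replicate ranks 7978 and 3506), and mRpL27 had 106 (-54 bp, pooled rank 4779, replicate ranks 8160 and 3606). The last 2 lay close to the lowest signal of the IDR list, 105.1, and both ranked past 4867 in replicate 1.

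The base of the stalk that engages translation factors is represented by mRpL10 and mRpL11. mRpL10 had a signal of 206 (-89 bp, pooled rank 1708, replicate ranks 1778 and 1826). mRpL11 had 109 (-201 bp, pooled rank 4624). mRpL10 had the most even pair of replicate ranks among the bound mRp genes, and the third stalk gene, mRpL12, had no IDR summit. mRpL18, whose bacterial counterpart binds 5S rRNA, had 149 (-57 bp, pooled rank 2859, replicate ranks 2965 and 3565). mRpL19, a protein of the subunit interface in bacteria, had 220 (-113 bp, pooled rank 1555, replicate ranks 1047 and 3240).

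Among the remaining bound genes with a bacterial counterpart, mRpL21 had 176 (-147 bp, pooled rank 2218, replicate ranks 2429 and 2347). mRpL34 had 156 (-163 bp, pooled rank 2699, replicate ranks 6340 and 1697). mRpL35 had 123 (-105 bp, pooled rank 3890, replicate ranks 5110 and 5905). It was the gene found in neither replicate's highest 4867 peaks although its pooled peak passed. mRpL32 had 121 (-130 bp, pooled rank 3979, replicate ranks 3816 and 4606). mRpL55 had 117 (-99 bp, pooled rank 4198, replicate ranks 3714 and 4104).

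The other bound large-subunit genes, whose products have no bacterial counterpart, spanned the same range. mRpL44, which in human resembles an RNase III, had 239 (-116 bp, pooled rank 1333, replicate ranks 1193 and 1857). mRpL53 had 152 (-139 bp, pooled rank 2778, replicate ranks 8994 and 1938). mRpL43 had 142 (-145 bp, pooled rank 3085, replicate ranks 3692 and 3187). Both of these proteins have a thioredoxin-like fold in human. mRpL54 had 123 with its summit exactly at the TSS (0 bp, pooled rank 3844, replicate ranks 5561 and 4338), and mRpL37 had 115.0 (-231 bp, pooled rank 4269, replicate ranks 4964 and 3751).

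In the small subunit the other bound genes had signals of 118 to 288. mRpS6 and mRpS18B belong to bacterial families that sit together on the platform of that subunit. mRpS6 had 174 (-87 bp, pooled rank 2244, replicate ranks 3136 and 2126), and mRpS18B had 155 (-100 bp, pooled rank 2711, replicate ranks 3410 and 2364). mRpS7 and mRpS17, whose counterparts bind rRNA early in assembly, had 171 (-150 bp, pooled rank 2321, replicate ranks 2654 and 2384) and 133 (-323 bp, pooled rank 3436, replicate ranks 7870 and 2779). In these 4 genes replicate 2 gave the higher rank. mRpS24, the mitochondrial form of bacterial S3, which lines the mRNA entry, had 123 (-328 bp, pooled rank 3888, replicate ranks 4962 and 2788). mRpS21 had 139 (-268 bp, pooled rank 3215).

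The bound small-subunit genes whose products have no bacterial counterpart were mRpS22, mRpS23, mRpS26 and mRpS31. mRpS26 had 288 (-171 bp, pooled rank 981, replicate ranks 1134 and 907), the highest below the strong group. mRpS22 had 157 (-60 bp, pooled rank 2665, replicate ranks 2466 and 3976), and mRpS31 had 118 (-260 bp, pooled rank 4144, replicate ranks 3928 and 4308).

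Neither subunit was favoured in the IDR list. It held 12 of 26 small-subunit genes (46.2%) and 21 of 47 large-subunit genes (44.7%). Genes with a bacterial counterpart were bound in 23 of 46 cases (50%) and those without in 10 of 27 (37.0%). In the highest peaks of replicate 2 these shares were 45.7% and 44.4%, and in replicate 1 34.8% and 29.6%, so the difference between the classes was smaller than that between replicates.

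The share of bound genes differed with the arrangement of the promoter. A gene was called divergent when a TSS of another gene lay on the other strand within 500 bp upstream. This held for 53 of 73 mRp genes (72.6%), against 29.6% of protein-coding genes. Of the divergent mRp genes 30 of 53 were bound (56.6%), against 41.4% of divergent protein-coding genes. Of the other mRp genes 3 of 20 were bound (15%), against 16.3%, namely mRpL10, mRpL19 and mRpL41. Outside divergent promoters the mRp share thus lay close to that of other genes. A divergent gene also counts as bound through a summit nearer to the start of its neighbour. Part of the higher share in divergent promoters therefore follows from the definitions. The split was not repeated with each peak given only to the nearest TSS. Among divergent genes the excess was seen in replicate 2, at 56.6% against 42.9%, and was near 0 in replicate 1, at 39.6% against 38.8%. The replicate means were 48.1% ± 12 for divergent mRp genes and 40.9% ± 2.90 for divergent protein-coding genes (SD, n = 2 each), a difference smaller than the spread between replicates.

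The distance between the divergent starts also differed between bound and unbound mRp genes. The median gap was 286 bp in the 30 bound and 97 bp in the 23 unbound divergent mRp genes, against 253 bp and 229 bp in protein-coding genes. Gaps of 0 to 100 bp made up 18 of the 53 mRp gaps (34%), against 21.8%. At those gaps 5 of 18 mRp genes were bound, against 37.9% of protein-coding genes. At 101 to 200 bp the count was 3 of 4, against 30.7%. At 201 to 300 bp it was 10 of 11, against 49.2%, and mRpL39 was the exception. At 301 to 400 bp it was 6 of 8, against 48.2%, and at 401 to 500 bp it was 6 of 12, against 36.5%. These 2 classes held mRp genes of the X chromosome. At 301 to 400 bp 1 of 2 was bound on X and 5 of 6 elsewhere. At 401 to 500 bp the counts were 0 of 4 on X and 6 of 8 elsewhere. The part of the chromosome in the gap counts was not tested.

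Joined into 2 classes, gaps over 100 bp were bound in 25 of 35 mRp genes (71.4%) and shorter gaps in 5 of 18 (27.8%), against 42.4% and 37.9% in protein-coding genes. The order was the same in the highest peaks of each replicate. In replicate 1 the highest peaks held 48.6% of mRp genes with the longer gaps and 22.2% with the shorter, and in replicate 2 68.6% and 33.3%. The replicate means were 58.6% ± 14.1 and 27.8% ± 7.85 (SD, n = 2 each), a difference larger than either SD. Both replicates score the same genes, so the SD does not measure variation between genes. The IDR list was made from these replicates, so their order is not independent of it. The full pooled list did not show this order. It placed a summit at 16 of 18 mRp genes with gaps of 0 to 100 bp (88.9%). In the 4 longer classes, by rising gap, it reached 4 of 4, 11 of 11, 7 of 8 and 9 of 12. Over all divergent protein-coding genes the pooled share was 84.4%. The 100 bp steps were chosen after the gaps had been seen, and no test was made on them.

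**Figure D2:**
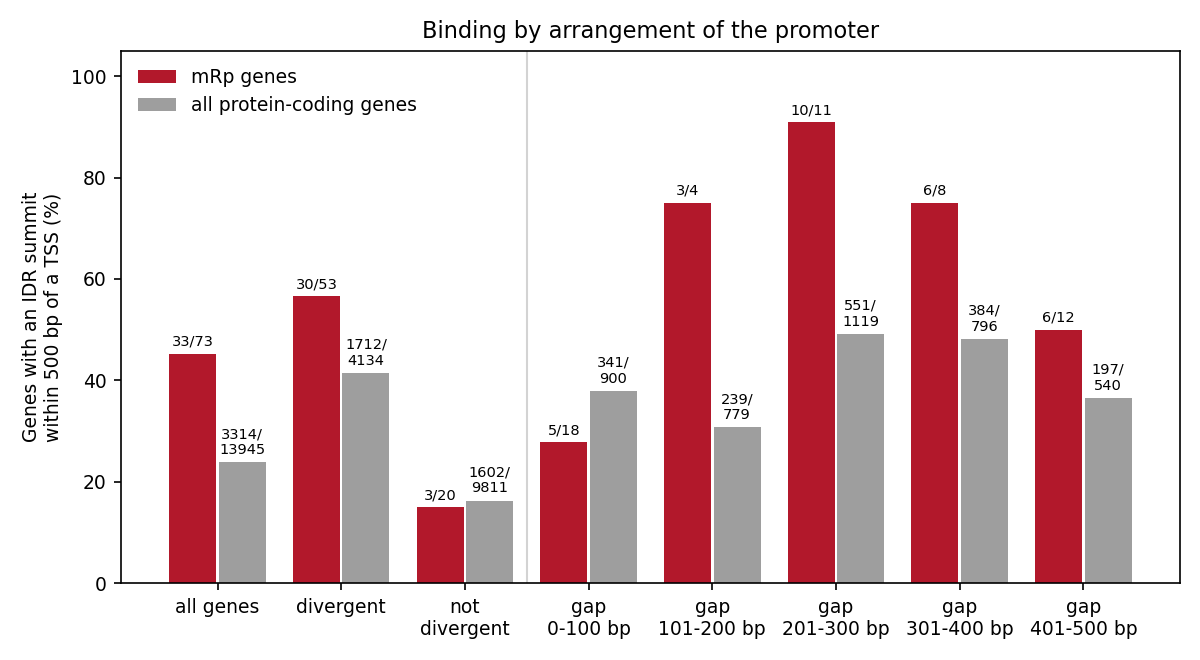
Share of genes with an IDR summit within 500 bp of a TSS (y axis, %) for mRp genes (red) and all protein-coding genes (grey), by promoter arrangement and by the gap between divergent starts (x axis), with the counts above the bars. The mRp bar is highest at gaps of 201 to 300 bp, at 10 of 11 genes, and lies below the grey bar at gaps of 0 to 100 bp.

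Nearly every bound mRp gene shared its peak. Within 500 bp of the summit lay a TSS of another gene in 31 of 33 cases (93.9%), against 55.7% of bound protein-coding genes. A summit between divergent starts is shared by definition. Of the 33 bound mRp genes 30 were divergent, against 1712 of 3314 bound protein-coding genes, so this contrast largely restates the arrangement. The start of the other gene was nearer to the summit in 19 of the 33. Only mRpL10 and mRpL19 had a peak of their own. mRpL41 shared its peak with a start of the long non-coding RNA gene lncRNA:CR44463, on the same strand and 437 bp from the summit.

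For the strong group, the partners were Art3, an arginine methyltransferase (mRpS10), CenG1A, which acts on small GTPases (mRpS23), CG9004 (mRpL23), betaggt-I, a prenyltransferase subunit (mRpL24), Icmt, which methylates prenylated proteins (mRpL20) and Mon1, an endosome maturation protein (mRpS2). Some partners also work in mitochondria. These were HtrA2, a protease (with mRpL11), Taz, the cardiolipin-remodelling tafazzin (mRpL18), qless, an enzyme of ubiquinone synthesis (mRpL32), Mitofilin, which shapes cristae (mRpL35), and ATPsynD, an ATP synthase subunit (mRpL55).

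Partners with a role in chromatin or transcription were trr, a histone methyltransferase (mRpL16), Snr1, a remodelling complex subunit (mRpL44), rept, an ATPase of remodelling complexes (mRpL21), and FoxK, a forkhead factor (mRpL2). RNA factors were AGO1, of the small RNA pathway (mRpL53, which also shared with CG33155 at its own start), and Nop60B, the pseudouridine synthase (mRpS17). Other partners were Dg, the dystroglycan gene (mRpL34), Cdk1, the mitotic kinase (mRpS7), Cip4, a membrane-bending adaptor (mRpS6), Droj2, a DnaJ-like chaperone (mRpS21), Apc2, of the Wnt pathway (mRpS24), Kua (mRpS18B), hzg (mRpS31), CG15435 (mRpL27), CG30183 (mRpL43), CG15653 (mRpL54), CG5003 (mRpS22) and CG13698 (mRpS26). These sets were grouped after the partners were seen. Their shares among the neighbours of unbound mRp genes or among all genes were not counted, so the sets only describe the partners. Which gene of a pair, if either, CG33017 acts on cannot be told from a shared peak.

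Summits lay upstream of the mRp start and usually between both starts. The median offset was -133 bp (-389 to 69 bp), with 31 summits upstream, mRpL54 at its TSS and mRpL23 downstream. Over bound protein-coding genes the median offset of the strongest summit was -119 bp. In 25 of 30 bound divergent mRp genes (83.3%) the summit fell between the starts, against 61.6% of bound divergent protein-coding genes. The median position of these summits was 52.7% of the way across the gap, against 49.9%.

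The exceptions were mRpL2, mRpL11, mRpL18, mRpL23 and mRpL55, whose gaps were 64, 126, 20, 24 and 95 bp. By annotation, 26 of the 34 mRp peaks had an intergenic summit (76.5%), 6 lay in a 5' UTR and 2 in an intron. Over all 2967 promoter peaks 44.9% were intergenic, 24.2% in a 5' UTR and 25.7% in an intron. No mRp summit lay in coding sequence.

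**Figure D3:**
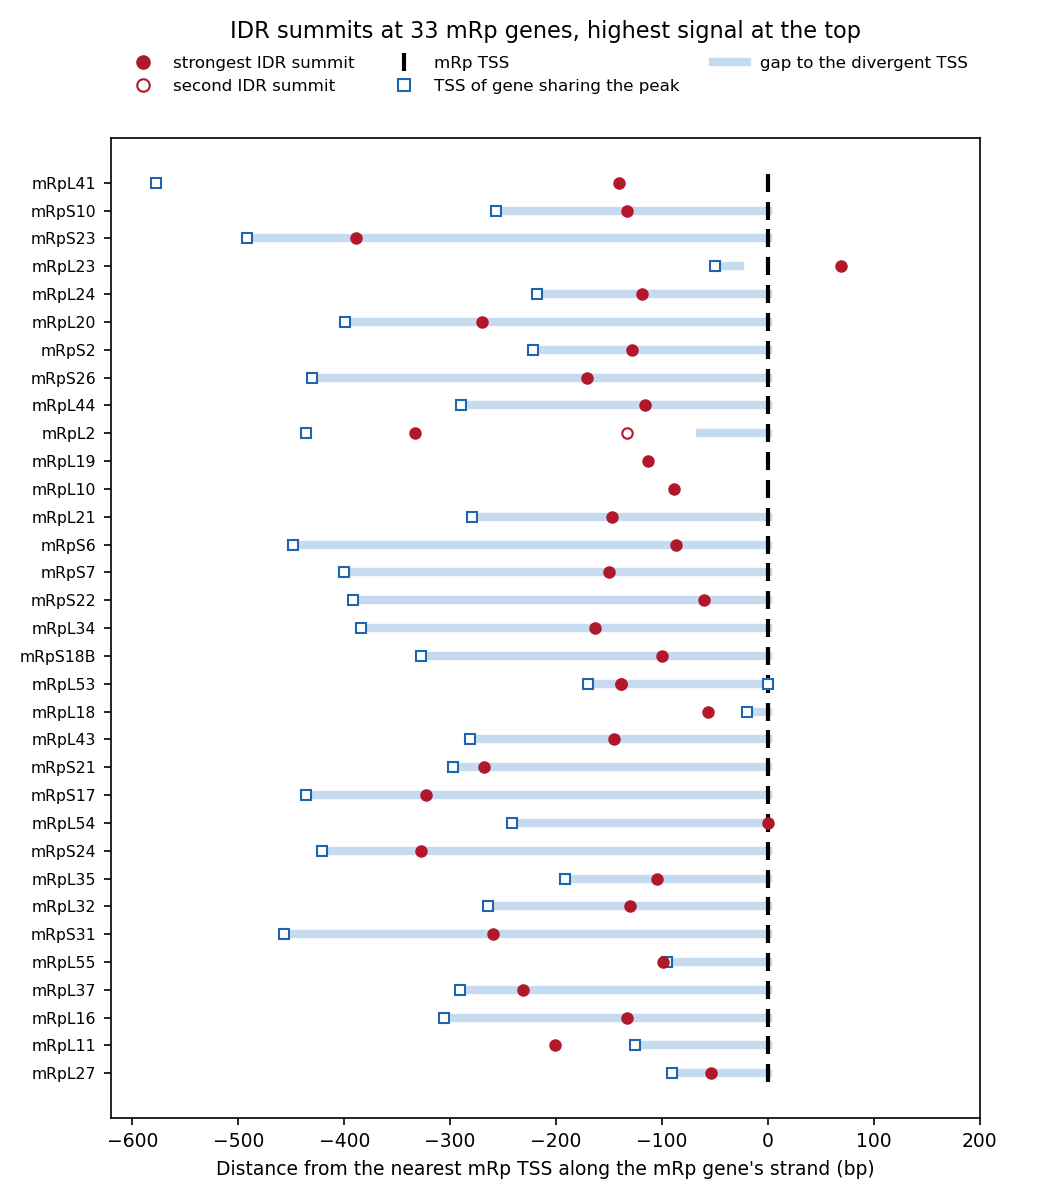
Position of IDR summits at the 33 bound mRp genes (rows, highest signal at the top) as distance in bp from the nearest mRp TSS along the strand of the mRp gene (x axis). Filled circles are the strongest summits, the open circle is the second summit of mRpL2, squares are the nearest TSSs of genes that share the peak, and pale bars span the gap between the closest divergent starts. In 25 rows the filled circle lies on the pale bar, and 31 filled circles lie left of 0.

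The A and T richness seen in the printed windows held over the mRp summits as a group. Within 50 bp of the summit the GC content was 29.8% ± 9.37 (SD, n = 34 mRp peaks), against 36.2% ± 11.4 (SD, n = 2967 promoter peaks). At 400 bp on either side it was 49.7% at mRp peaks and 43.6% at promoter peaks. The mRp peaks were thus lower in GC at the summit and higher in GC on the flanks. The 7 strong peaks had 21.6% ± 4.80 (SD, n = 7), the other mRp peaks 31.9% ± 9.15 (SD, n = 27), and the 99 promoter peaks with a signal above 900 had 25.7% ± 6.30. The pooled peaks at the 27 mRp genes with a pooled summit and no IDR summit were less A and T rich than the mRp IDR peaks, at 39.9% ± 10.5 (SD, n = 27). No such value was taken over other genes with only a pooled summit. Promoter IDR peaks with a signal below 900 had 36.6%, and the part of signal in these differences was not tested.

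The whole gap between divergent starts showed the same order. It averaged 35.1% ± 7.62 GC in the 30 bound and 41.6% ± 10.8 in the 23 unbound mRp genes, against 36.9% and 38.5% in protein-coding genes. Bound and unbound mRp genes thus differed in both gap length and base composition, and the part of each was not tested. Peaks that share a promoter type also share base composition with it, so these values describe the sites only.

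**Figure D4:**
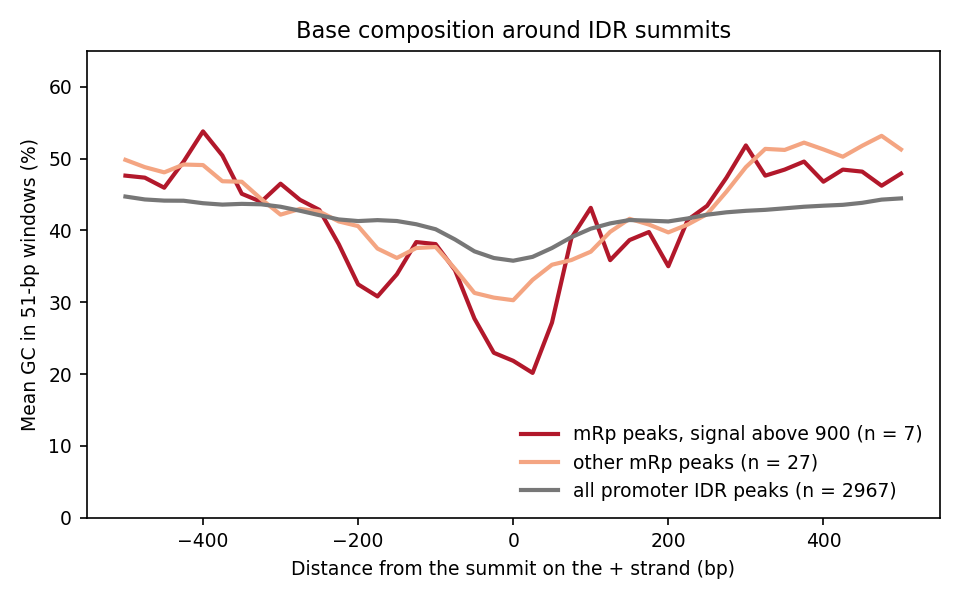
Mean GC content in 51-bp windows (y axis, %) by distance from the IDR summit on the + strand (x axis, bp), for the 7 mRp peaks with a signal above 900, the other 27 mRp peaks and all 2967 promoter IDR peaks. All curves dip at the summit, and the strong mRp peaks dip lowest.

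Short sequences known from fly promoters were sought within 100 bp of each summit, on both strands. The TATA box (TATAAA) was in 14 of 34 mRp windows (41.2%), against 36.4% of promoter peaks. The core of the DNA replication-related element, bound by Dref (ATCGAT), was in 3 (8.82%), against 12.6%. Motif 1 (GGTCACAC) was in 3, against 4.45%, and Motif 7 (CANCNCTA) in 4, against 12.5%. The E-box (CACGTG) was in 3, against 2.63%. The GAGA element (GAGAG) was in 6 (17.6%), against 27.6%, and the core of the NRF-1 family site (TGCGCA) in 1, against 5.06%. Overlaps between motifs were not removed. The mRp windows are richer in A and T than those of promoter peaks, and the part of base composition in these counts was not tested.

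Windows of the same length ending at the canonical TSS of all 73 mRp genes were searched as well. The Dref core was in 22 (30.1%), against 18.4% of protein-coding genes, Motif 7 in 12 (16.4%), against 9.59%, and the E-box in 5 (6.85%), against 2.15%. GAGA was in 6 (8.22%), against 22.7%. Motif 1 was in 3 (4.11%), against 3.68%, the TATA box in 26 (35.6%), against 36.5%, and the NRF-1 core in 2 (2.74%), against 4.96%. A match is a run of letters and no evidence of occupancy.

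The full lists of 30000 peaks reached further. The pooled list placed a summit at 60 mRp genes (82.2%), against 61.3% of protein-coding genes. The full replicate 1 list placed one at 62 (84.9%), against 61%, and the full replicate 2 list at 63 (86.3%), against 59.2%. Both replicate lists held 59 (80.8%), against 52.7%. The mRp share exceeded the protein-coding share in every one of these lists. Split by arrangement, the excess in the pooled list was smaller in each class. It was 88.7% against 84.4% in divergent promoters and 65% against 51.6% in the others.

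A pooled summit with no IDR summit was found at 27 genes, 21 of them of the large subunit. Their pooled ranks were 5093 to 21991 with a median of 10397. Closest to the IDR list were mRpL51 (signal 102), mRpL39 (92.0) and mRpL47 (89.2), against 106 at mRpL27, the lowest bound gene. The others were mRpL1, mRpL3, mRpL4, mRpL9, mRpL12, mRpL13, mRpL14, mRpL15, mRpL17, mRpL22, mRpL36, mRpL42, mRpL45, mRpL46, mRpL48, mRpL49, mRpL50, mRpL52, mRpS9, mRpS11, mRpS14, mRpS16, mRpS18A and mRpS18C. In 24 of the 27 both replicate lists held a summit too.

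A further 6 genes had a summit in a replicate list and none in the pooled list. mRpS28 and mRpS30 had one in both, mRpL28 and mRpL40 in replicate 1 and mRpL33 and mRpS29 in replicate 2. mRpS29 is in human a GTP-binding protein also known for a part in cell death. Its rank in replicate 2 was 4951.

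The 7 genes with no summit in any list were mRpL30, mRpL38, mRpS5, mRpS25, mRpS33, mRpS34 and mRpS35, 5 of them of the small subunit. The nearest IDR summit to any unbound mRp gene was 1454 bp away, at mRpL13, and the farthest 1441759 bp, at mRpS5. In promoters that are not divergent, the pooled list reached 1 of 7 small-subunit genes, mRpS9, and 12 of 13 large-subunit genes, against 51.6% of such protein-coding genes. This split was noticed after the values were seen and was not tested.

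On the X chromosome the share of bound genes was low for mRp genes and for protein-coding genes alike. Of 11 mRp genes there, mRpL16 alone had an IDR summit (9.09%), against 15.8% of protein-coding genes on X. A count this small cannot be set apart from that share. On the other arms 32 of 62 were bound (51.6%), against 25.2%. In divergent promoters the counts were 1 of 7 on X, against 23.9% of protein-coding genes, and 29 of 46 elsewhere (63.0%), against 44.4%. The highest peaks of replicate 1 held no mRp gene of X and those of replicate 2 held mRpL16. The pooled list placed a summit at 6 of the 11 mRp genes on X (54.5%) and at 54 of the 62 on the other arms (87.1%). All flies were male, so X was present as a single copy in every sample. The part of copy number in these counts was not tested. By arm, 7 of 12 genes were bound on 2L, 7 of 12 on 2R, 7 of 17 on 3L and 11 of 21 on 3R.

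Set beside other gene lists, the mRp genes had a share with an IDR summit between those of the cytoplasmic ribosomal protein genes and of the other mitochondrial genes, all read against the 23.8% of protein-coding genes. Genes of the cytoplasmic ribosome had an IDR summit in 70 of 93 cases (75.3%), and their own start was the nearest in 67 of the 93, beside 14 of 73 for the mRp genes (19.2%), 18 of 86 for oxidative phosphorylation (20.9%) and 5 of 34 for mitochondrial gene expression (14.7%), so the order of the last 3 lists changes with this measure. They were bound in divergent promoters (32 of 39) and in others (38 of 54). Of the 70, 36 shared the peak, against the 31 of 33 bound mRp genes. Nuclear genes for oxidative phosphorylation subunits were bound in 23 of 86 cases (26.7%), with 15 of 39 in divergent promoters and 8 of 47 in others.

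Genes of mitochondrial gene expression other than the mRp genes gave 8 of 34 (23.5%), with 34 of 38 listed symbols matched. In divergent promoters 7 of 19 were bound. PolrMT, the mitochondrial RNA polymerase, had a signal of 112, mtTFB2, its initiation factor, 139, and mTerf5, a member of the termination factor family, 184. The aminoacyl-tRNA synthetase genes ProRS-m, CysRS-m, ArgRS-m, PheRS-m and LeuRS-m had signals of 106 to 192. TFAM, which packages mitochondrial DNA, and the elongation factor genes mEFTu1, mEFTu2, mEFTs and mEFG1 had a pooled summit and no IDR summit. The same held for tko and bonsai, which encode small-subunit proteins of the mitochondrial ribosome under other symbols and so were not counted among the 73. None of the 8 bound genes of mitochondrial gene expression reached the signal of mRpS2. The differences between lists were not tested.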

How the data were processed

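ChIP-seq was carried out by the authors on 2 biological replicates of 1 group, and the deposited peak lists on dm6 were used. Per the labels' accompanying notes, the authors called peaks on each replicate and on the pooled replicates against a shared control and made the final list by IDR. Which aligner, caller and IDR threshold served is not given in the sources used here. Every deposited peak carries the authors' signal value, used to rank peaks within a list only, a deposited q-value as −log10, which was not used, and a deposited summit offset from the peak start. The pooled and replicate lists held 30000 peaks each and the IDR list 4867, with signals of 105 to 3404 and a median width of 404 bp. Depth is unknown.

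Summits were placed on 18164 genes of 6 arms (2L, 2R, 3L, 3R, 4 and X) in Ensembl release 115, and sequences were read from the RefSeq genome of that assembly, whose arm lengths hold all peaks of the lists. A gene was bound if a summit lay within 500 bp of any TSS. Counting was done in Python 3.11.15 with NumPy 2.4.6, SciPy 1.17.1 and pysam 0.24.0, and figures with matplotlib 3.10.9. The assignment was tested on simulated data. The error of a share is the SD over the highest 4867 peaks of each replicate. There is no second condition, so no test between groups was made. The members, gene lists, motifs and rules were chosen with earlier results of these data known. Every bound mRp gene is named with its signal, ranks and offset, and unbound ones with the list that holds a summit. Sequences follow signal, outside 2R, and 1 neighbouring gene and 1 sequence that the rules name are not reported here. The 900 signal split and gap classes were set after values were seen. Alternatives were a stricter list, single replicates, windows of 250 and 1000 bp, peak midpoints, canonical TSSs and protein-coding neighbours.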

Additional observations from a re-analysis of the deposited data

How the results depend on the processing

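Over 9 results there were 63 alternative values. A count was taken as stable within 1.5 times the reported count, and a median within 1 SD between replicates. By these rules 54 were stable, 9 moved and 0 changed sign. Peak midpoints returned the reported value in every result. The rule for counts also passed 24 bound genes against 33 as stable. The tally therefore depends on the chosen limits and is no measure of robustness. A stricter IDR list, limited to its stronger peaks, gave 15 bound mRp genes (20.5%, against 13.6% of protein-coding genes), 8 by the nearest start, 12 divergent, 13 with a shared peak and a median signal of 288. A shorter list can only lower these counts. With the 10000 highest-signal peaks, 37 mRp genes had a summit in both replicates. Without 1 replicate the median signal was 86.2 to 96.6, on the replicates' own scales, and the median offset of the nearest summit -132 to -121 bp. The bound count was 24 without replicate 2 (32.9%, against 22.5%) and 33 without replicate 1 (45.2%, against 24.1%). A window of 250 bp gave 27 (37.0%, against 19.8%). No paired analysis was possible because there was 1 group. Depth is unknown, so a gene with no summit may hold binding below the limit of these lists.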
